A study of Mus musculus with 12 samples.

Results

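The serpins are a family of proteins that share a fold, and most of them inhibit serine proteases. The genes examined here are all rows of the deposited expression table whose name is Serpin followed by a clade letter and a number, with Serping1 (the gene of the C1 inhibitor) among them. They number 63 of the 23406 genes in the table, and 23 of the 63 reached a mean of 0.5 CPM (read counts scaled to a common library size) over the 12 libraries, the level from which genes were tested. The names were the only criterion, and no measured value chose a member, though the members were listed with earlier results of these data known.

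RNA was sequenced from mammospheres, the floating spheres that mammary cells form in suspension culture, at passage 2. The 4 groups were wild-type C57BL/6J mice (WT) at 2 months and at 12 months, and C57BL/6J mice without p66Shc (p66-/-, Shc1p66KO in the sample titles, KO below) at 2 months and at 12 months, with 3 libraries per group. The groups are called young WT, aged WT, young KO and aged KO. p66Shc is the longest protein made from Shc1, and the groups differ in that allele and in age, with no other agent named in the labels. The series' design text gives 3 mice per group but does not tie a library to a mouse, so the p-values measure the spread between these libraries, which may be technical.

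A serpin inhibits by offering its exposed reactive loop to a protease, which cuts the loop and is then trapped in a covalent complex as the serpin changes shape. Clade A holds mostly secreted proteins of liver and plasma, clade B mostly intracellular proteins that guard cells against their own or incoming proteases, and the other clades hold inhibitors of coagulation, of plasminogen activation and of complement. A few members do not inhibit proteases, such as Serpinh1 (HSP47), a chaperone for collagen in the endoplasmic reticulum, Serpinf1 (PEDF), a secreted antiangiogenic factor, and Serpinb5 (maspin), known from mammary epithelium.

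Reads per library ran from 31845169 to 109079737 in genes, with the highest in replicate 3 of aged KO, and a count of 3 reads stood for 0.029 to 0.0859 CPM. The deposited Shc1 row, which counts all transcripts of the gene, was at 296 ± 25.3 CPM in young WT and 208 ± 0.329 in young KO (SD, n = 3 each), and at 211 ± 8.44 and 170 ± 7.6 at 12 months. The KO libraries were lower at both ages (log2 fold change -0.50, adjusted p = 0.000133, and -0.31, adjusted p = 0.000593, limma). That row does not separate p66Shc from the shorter proteins, so it is a partial check of the labels. Summed over marker lists, 10 fibroblast genes reached 9778 to 14379 CPM in all 12 libraries. The 11 luminal epithelial genes reached 4135 to 4281 CPM in aged WT but 340 to 548 CPM in the other 9 libraries, so in every library the fibroblast genes summed to more CPM than the luminal genes. In bulk RNA, fewer cells of a type and less RNA per cell cannot be told apart.

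Promoters of 7 members whose levels are described below are shown first, as the 250 bases before the RefSeq start site (build GRCm38.p6), 5′ to 3′ on the strand of the gene. Capitals mark matches, searched on both strands, to TTCNNNGAA, the STAT-type motif, and to TGANTCA, the AP-1 motif. The first pair, Serpina3n and Serpina3c, is shown for its likeness, since 92.7% of 247 aligned columns were identical.

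Serpina3n, chr12:104406458-104406707 (plus strand): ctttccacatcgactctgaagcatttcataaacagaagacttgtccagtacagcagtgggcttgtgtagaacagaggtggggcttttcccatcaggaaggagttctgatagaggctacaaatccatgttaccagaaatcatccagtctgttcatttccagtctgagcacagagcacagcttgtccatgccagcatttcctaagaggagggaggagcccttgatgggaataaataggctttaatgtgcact
Serpina3c, chr12:104153873-104154122 (minus strand): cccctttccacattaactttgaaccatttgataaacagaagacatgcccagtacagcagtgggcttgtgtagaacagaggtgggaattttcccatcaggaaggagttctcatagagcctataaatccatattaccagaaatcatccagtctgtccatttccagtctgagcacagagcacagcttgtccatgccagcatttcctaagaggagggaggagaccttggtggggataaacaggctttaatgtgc

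Serpina3f, Serpina3g and Serpina3i follow because each held a STAT-type match and each rose with age in both genotypes.

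Serpina3f, chr12:104214294-104214543 (plus strand): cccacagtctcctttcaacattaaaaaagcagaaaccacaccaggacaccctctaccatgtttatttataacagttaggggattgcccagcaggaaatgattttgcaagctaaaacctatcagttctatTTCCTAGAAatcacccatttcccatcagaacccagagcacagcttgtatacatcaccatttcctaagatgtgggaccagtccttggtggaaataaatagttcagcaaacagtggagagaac
Serpina3g, chr12:104235897-104236146 (plus strand): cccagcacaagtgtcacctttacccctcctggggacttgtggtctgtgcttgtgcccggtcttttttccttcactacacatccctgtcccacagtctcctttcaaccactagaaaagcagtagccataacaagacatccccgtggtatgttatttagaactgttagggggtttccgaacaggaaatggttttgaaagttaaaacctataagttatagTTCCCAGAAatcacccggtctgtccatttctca
Serpina3i, chr12:104262872-104263121 (plus strand): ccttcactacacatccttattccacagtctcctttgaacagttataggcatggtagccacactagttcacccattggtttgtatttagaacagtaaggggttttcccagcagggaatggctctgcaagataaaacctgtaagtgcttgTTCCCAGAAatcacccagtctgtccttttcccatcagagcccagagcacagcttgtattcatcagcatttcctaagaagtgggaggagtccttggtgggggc

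Serpinb2 and Serpinb5 are shown because they lie in the same gene cluster, each held an AP-1 match, as did 5 other genes of that cluster, and the first was highest in aged KO and the second in aged WT. Where the table gives a gene 2 starts, as for Serpina3f and Serpinb2, the more upstream one is shown.

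Serpinb2, chr1:107511173-107511422 (plus strand): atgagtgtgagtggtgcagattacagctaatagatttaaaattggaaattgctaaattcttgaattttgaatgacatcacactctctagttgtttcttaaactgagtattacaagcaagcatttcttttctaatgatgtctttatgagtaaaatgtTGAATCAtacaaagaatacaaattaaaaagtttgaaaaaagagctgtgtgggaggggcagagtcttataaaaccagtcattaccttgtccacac
Serpinb5, chr1:106860925-106861174 (plus strand): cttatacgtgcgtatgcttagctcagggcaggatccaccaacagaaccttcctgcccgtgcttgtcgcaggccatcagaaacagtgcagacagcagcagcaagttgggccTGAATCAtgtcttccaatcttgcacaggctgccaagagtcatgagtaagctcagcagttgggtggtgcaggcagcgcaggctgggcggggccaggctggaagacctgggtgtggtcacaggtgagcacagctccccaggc

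The STAT-type matches began at -121 from the start site in Serpina3f (TTCCTAGAA), at -33 in Serpina3g (TTCCCAGAA) and at -102 in Serpina3i (TTCCCAGAA). Serpinb6a, which fell with age in WT (-0.33) and rose in KO (0.38), also held a STAT-type match, TTCCGGGAA at -77. The AP-1 matches were TGAATCA in both, at -94 in Serpinb2 and at -140 in Serpinb5, and TGAGTCA at -23 in Serpinb8, which fell with age in both genotypes, and the window of the second Serpinb2 start also held TTCCAAGAA at -77. Among 32851 RefSeq promoter windows of the same length, 2306 (7.02%) held the STAT-type letters and 2217 (6.75%) the AP-1 letters, so such letters occur in many promoters. Apart from the first pair, the printed promoters were shown in part because they held a match, so they do not give the share within the family. The kappaB and IRF-type motifs were searched too, and no member with a window held the first (0.356% of all windows), while Serpinb9 and Serpinb6a held the second (2.98%). Of the 63 members 52 had a window in the RefSeq table, and 18 of the 23 tested members were among them. A match describes letters in this window and says nothing about binding, and no match says only that these letters are not there. Promoters of Serpina3f and Serpina3g were 81% identical over 147 aligned columns, those of Serpina3g and Serpina3i 79% over 186, and those of Serpina3i and Serpina3n 72% over 239.

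The family as a whole was most abundant in aged KO. Summed over all 63 members, serpin transcripts reached 4668 ± 374 CPM in young WT, 3676 ± 68.9 in aged WT, 4573 ± 25.1 in young KO and 8968 ± 588 in aged KO (SD, n = 3 each). The lowest aged KO library, at 8365 CPM, was above the highest of the other 9, at 4984. Clade A made up 36.0% of the summed serpin CPM in aged KO against 8.11% to 10.1% in the other groups, nearly all of it Serpina3n. Serpinh1 (HSP47) went the other way, from 42.9% of the sum in young KO to 11.4% in aged KO.

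**Figure D1:**
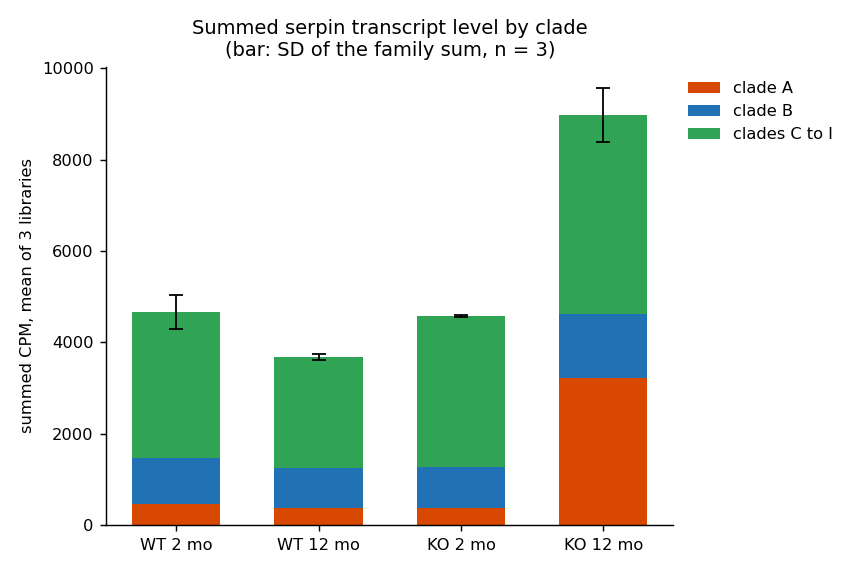
Summed serpin CPM per group (y axis, mean of 3 libraries), stacked by clade, with the SD of the family sum as a bar. The aged KO column is the highest at 8968 CPM, with a clade A layer of 3225 CPM against 371 in young KO.

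Of the 23 tested members, 17 were highest on average in aged KO. Serpinb1b, among them, reached the filter of 0.5 CPM only through its level in that group, and the counts below include it where it was called. With age in KO, 17 rose and 4 fell, where 32.9% of the 13961 genes tested were called higher and 34.2% lower (67% either way). With age in WT, 9 rose and 11 fell, against 22.3% and 35.6% of all genes (58% either way). At 12 months 18 were higher and 2 lower in KO than in WT, against 31.3% and 38.9% of all genes (70.2% either way). At 2 months 4 were higher and 11 lower in KO, against 1.86% and 14.2% of all genes (16.1% either way), and 5 and 7 when the libraries were rescaled together by TMM, a scaling by the trimmed mean of log ratios between libraries. The median member changed by 1.45 on the log2 scale with age in KO and by 0.03 with age in WT, beside -0.02 and -0.08 over all genes tested. The age effect differed between genotypes for 20 members by the interaction term of limma (18 more positive and 2 more negative in KO), where 31.4% and 26.2% of all genes were called (57.7% either way). The comparisons share groups (young WT serves both age in WT and genotype at 2 months, for example), so each gives its own values and they are not independent of each other.

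**Figure D2:**
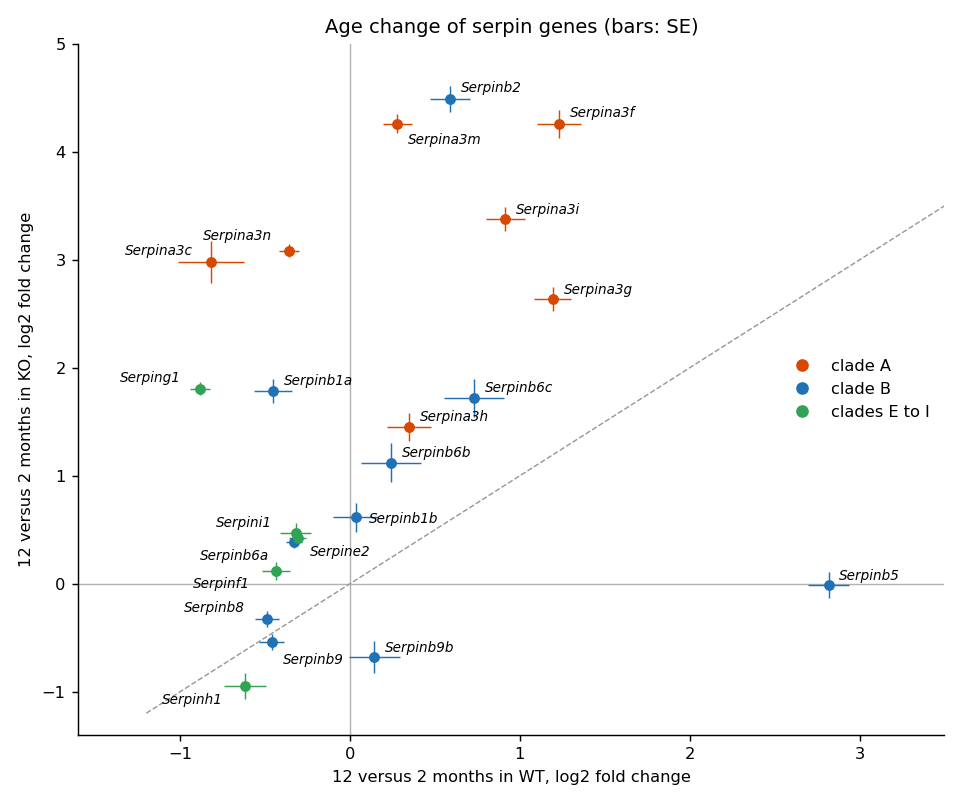
Log2 fold change from 2 to 12 months in WT (x axis) and in KO (y axis) of 22 of the 23 tested serpin genes, with SE as bars, colour for clade and a dashed line where both are equal. All 7 clade A points lie above the line at 1.45 or more on the KO axis, and Serpinb5 lies alone at the right at 2.82 in WT and -0.01 in KO.

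Serpina3n, the mouse relative of human alpha-1-antichymotrypsin (SERPINA3), was the main clade A transcript and rose with age in KO and fell with age in WT. Its gene lies at chr12:104406708-104414329 (mm10, plus strand). Its values were 431, 424 and 424 CPM in young WT, 336, 314 and 348 in aged WT, 347, 373 and 336 in young KO, and 2877, 2887 and 3212 in aged KO. The 3 libraries of aged KO stood far above the other 9, and the young WT libraries were above aged WT and young KO without overlap. The age change in KO was 3.09 ± 0.06 (log2 fold change ± SE, adjusted p = 7.61e-13), and in WT it was -0.36 ± 0.06 (adjusted p = 0.000171). KO exceeded WT at 12 months by 3.17 (adjusted p = 7.26e-13) and differed by -0.28 at 2 months (adjusted p = 0.00654), and the latter was no longer called with TMM over all 12 libraries (adjusted p = 0.0526) or with edgeR (0.0996). Per kilobase of transcript, the scale on which genes can be compared, Serpina3n was at 207, 161, 171 and 1450 CPM in young WT, aged WT, young KO and aged KO.

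**Figure D3:**
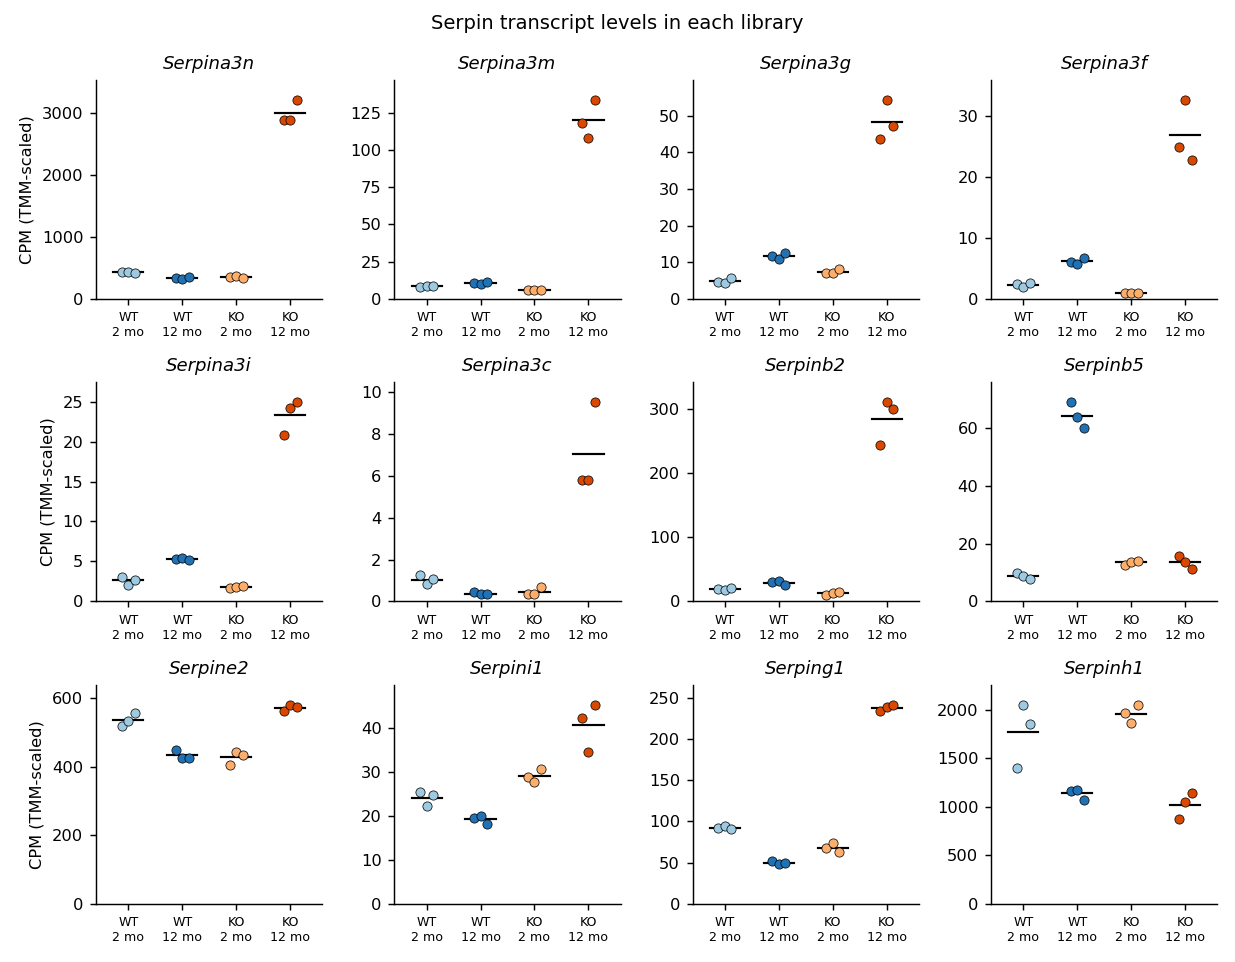
CPM (y axis, linear from 0) of 12 serpin genes in each library, with the 4 groups on the x axis, 1 dot per library and a line at the group mean. Serpina3n sits at 2877 to 3212 CPM in the aged KO libraries and at 431 or less in the rest, while Serpinb5 is high in the aged WT libraries alone.

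The other 6 tested clade A genes all belong to the Serpina3 cluster on chromosome 12, a stretch of 301.606 kb with 11 Serpina3 rows where humans have a single SERPINA3 gene. All 7 tested Serpina3 genes rose with age in KO and all 7 were higher in KO than WT at 12 months, with medians of 3.09 and 2.03 on the log2 scale. In WT 5 rose and 2 fell with age, with a median of 0.35, and at 2 months 1 was higher and 5 were lower in KO, with a median of -0.43.

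Serpina3m was at 7.8, 8.92 and 8.56 CPM in young WT, 10.3, 9.62 and 11.1 in aged WT, 5.84, 5.76 and 5.66 in young KO, and 118, 108 and 134 in aged KO. The aged KO libraries were 19.2-fold above young KO (4.26 ± 0.09, adjusted p = 8.21e-13), and the rise with age in WT was 0.28 (adjusted p = 0.0141). Serpina3f was at 2.5, 1.97 and 2.54 CPM in young WT, 6.08, 5.7 and 6.64 in aged WT, 0.892, 0.972 and 0.874 in young KO, and 25, 32.7 and 22.8 in aged KO. The groups of Serpina3f did not overlap, from young KO at the bottom to aged KO at the top. Its age change was 4.26 ± 0.13 in KO (adjusted p = 2.41e-11) and 1.23 ± 0.13 in WT (adjusted p = 2.46e-06).

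Serpina3g encodes an intracellular serpin (Spi2A) known to inhibit cysteine cathepsins. It was at 4.68, 4.29 and 5.68 CPM in young WT, 11.7, 11 and 12.6 in aged WT, 6.95, 7.04 and 8.05 in young KO, and 43.6, 54.4 and 47.1 in aged KO. It was the 1 tested Serpina3 gene called higher in young KO than in young WT (0.55, adjusted p = 0.00424), and its age change was 2.64 ± 0.11 in KO and 1.19 ± 0.11 in WT. Serpina3i was at 3.07, 2.09 and 2.67 CPM in young WT, 5.27, 5.46 and 5.21 in aged WT, 1.7, 1.79 and 1.88 in young KO, and 20.9, 24.3 and 25 in aged KO. It rose with age in both genotypes, by 3.38 ± 0.11 in KO and 0.91 ± 0.11 in WT, with no overlap between the ages.

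Serpina3c was at 1.25, 0.82 and 1.05 CPM in young WT, 0.429, 0.337 and 0.343 in aged WT, 0.324, 0.324 and 0.694 in young KO, and 5.81, 5.79 and 9.54 in aged KO. It was lower in aged than young WT (-0.82 ± 0.20, adjusted p = 0.00275) and higher in aged than young KO (2.98 ± 0.20, adjusted p = 2.16e-08). In all, 7 tested members had this pattern, among them Serpina3n and members outside clade A such as Serping1 and Serpinb1a. Its mean per kilobase over the 12 libraries was 1.01 CPM, against 497 for Serpina3n. Serpina3h, annotated as a transcribed pseudogene, was at 2.21, 2.09 and 2.12 CPM in young WT, 2.75, 3.2 and 2.66 in aged WT, 1.97, 2.33 and 1.9 in young KO, and 5.71, 8.17 and 5.91 in aged KO. Its rise in KO was the smallest of the 7 (1.45, adjusted p = 4.14e-07), and that in WT was 0.35 (adjusted p = 0.0335).

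Reads of these genes can be split by the counting. Of the 50-base words in their longest transcripts, 4.25% (Serpina3c) to 24.4% (Serpina3h) also occur in other genes' transcripts, with 6.9% for Serpina3n and 19.1% for Serpina3m. The deposited rows of Serpina3f and Serpina3g overlap on the same strand, so their separate values are uncertain. Both of the smallest changes in WT depended on single libraries. The rise of Serpina3h was 0.33, 0.34, 0.37 and 0.28 and not called without replicate 2 or 3 of young WT or replicate 1 or 2 of aged WT, it was also lost with no filter (adjusted p = 0.0582), and that of Serpina3m was 0.23 and not called without replicate 3 of aged WT.

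The rest of clade A was near the floor. The other 18 of its 25 rows stayed below a mean of 0.5 CPM, and 6 of them (Serpina11, Serpina1a, Serpina1c, Serpina1d, Serpina1f and Serpina3j) had no read in any library. The liver serpins Serpina1b and Serpina1e (alpha-1-antitrypsin) had 2 reads and 1 read over all libraries, Serpina6 (corticosteroid-binding globulin) 3 and Serpina10 3. Serpina3k, a neighbour of Serpina3m, had 11 reads. Serpina7 (thyroxine-binding globulin, on chromosome X) had 60, and Serpina12 (vaspin, a secreted adipose serpin) 117. Of 10 hepatocyte markers 8 were also below 0.5 CPM, Alb, Apoa1 and Ttr among them, while Trf and Ahsg were not. With these the list summed to 105 to 138 CPM in young WT and 690 to 757 in aged WT. In young KO the sum was 64.4 to 73.4 CPM and in aged KO 186 to 204.

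**Figure D4:**
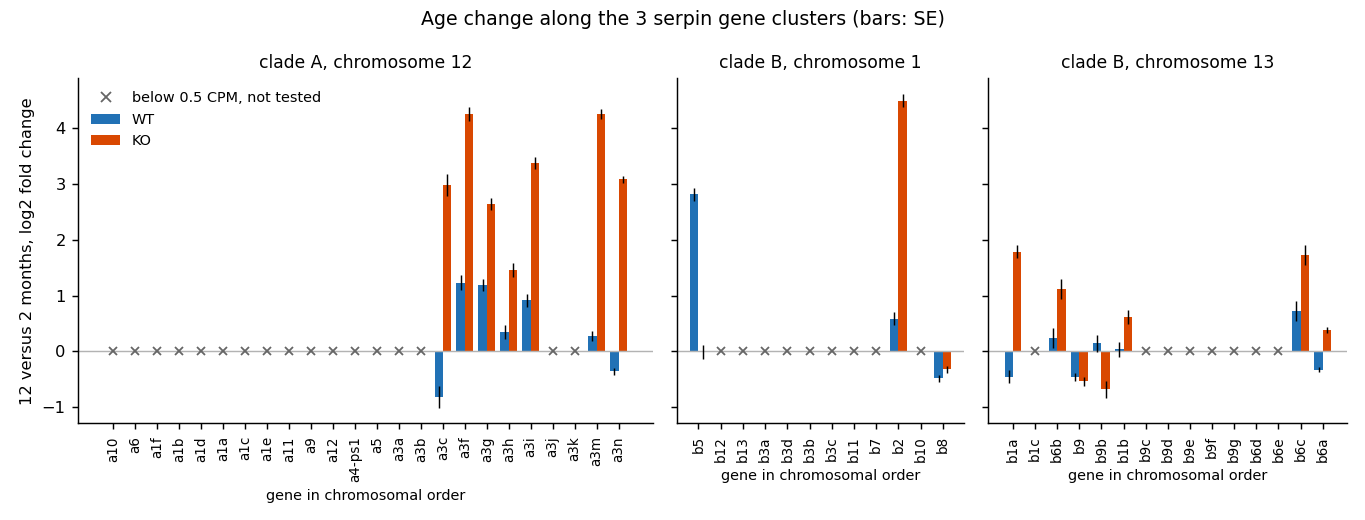
Log2 fold change from 2 to 12 months in WT and KO (y axis, SE as bars) for the clade A genes of chromosome 12 and the clade B genes of chromosomes 1 and 13, in chromosomal order on the x axis, with crosses for genes below 0.5 CPM. On chromosome 12 the tested genes sit together at the Serpina3 end and all rise in KO, while on chromosome 1 the tested genes Serpinb5, Serpinb2 and Serpinb8 differ in direction.

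Clade B was mixed. Its 27 rows lie on chromosome 1 (12 rows within 747.799 kb) and chromosome 13 (15 rows within 1160.703 kb), and 10 were tested. With age in KO 6 rose and 3 fell (median 0.50), in WT 3 rose and 4 fell (median 0.09), and at 12 months 6 were higher and 2 lower in KO (median 0.52). With a filter at 2 CPM, which leaves out Serpinb1b, Serpinb6b and Serpinb6c, the clade B medians were -0.0131 for age in KO and -0.3291 for age in WT. Over all genes tested the medians with age in KO, with age in WT and at 12 months were -0.02, -0.08 and -0.07.

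Serpinb2, the intracellular and secreted plasminogen activator inhibitor type 2, had an age change in KO that was the largest of the family on the log2(CPM + 0.5) scale. With a pseudocount of 0.1 it was 4.54 and that of Serpina3f 4.72, and with edgeR 4.55 and 4.87. It was at 18.8, 17.8 and 20.3 CPM in young WT, 30.7, 31 and 24.8 in aged WT, 10.4, 12.4 and 13.9 in young KO, and 244, 311 and 300 in aged KO. None of the groups overlapped, and the rise was 4.49 ± 0.12 in KO (adjusted p = 6.62e-12) against 0.59 ± 0.12 in WT (adjusted p = 0.000849). The gene lies at chr1:107511423-107525600 on the plus strand.

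Serpinb5 (maspin), at chr1:106861180-106883348, had another pattern. It was at 9.96, 8.66 and 7.59 CPM in young WT, 69.1, 63.8 and 60.2 in aged WT, 12.7, 13.7 and 14 in young KO, and 15.8, 13.5 and 11.1 in aged KO. Only aged WT stood apart from the other groups by a large margin, with a rise of 2.82 ± 0.12 with age in WT (adjusted p = 2.69e-10) and -0.01 ± 0.12 in KO (adjusted p = 0.93). The interaction was -2.83 (adjusted p = 1.47e-08), and the KO libraries were lower at 12 months by -2.23 (adjusted p = 2.22e-09). Luminal markers moved with it, with summed levels of 340 to 419, 4135 to 4281, 473 to 548 and 504 to 538 CPM in young WT, aged WT, young KO and aged KO, and so did 8 basal markers (41.6 to 56.5, 261 to 282, 54.2 to 62.3 and 79.2 to 87.5 CPM). Their part in the level of Serpinb5 was not tested.

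Serpinb6a, an inhibitor of cathepsin G and related proteases, was the most abundant clade B gene. Its values were 907, 868 and 857 CPM in young WT, 714, 684 and 696 in aged WT, 770, 738 and 771 in young KO, and 977, 1036 and 961 in aged KO. The age change was -0.33 ± 0.05 in WT (adjusted p = 5.71e-05) and 0.38 ± 0.05 in KO (adjusted p = 1.23e-05), without overlap between the ages. It overlaps Nqo2 and 1110046J04Rik on the opposite strand, and the strand setting of the counting is not given in the sources used here.

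Serpinb1a, an inhibitor of neutrophil elastase, was at 6.3, 6.52 and 6.42 CPM in young WT, 4.18, 4.74 and 4.72 in aged WT, 4.38, 3.5 and 3.14 in young KO, and 14.6, 12.3 and 14.6 in aged KO. The age change was -0.46 in WT (adjusted p = 0.00333) and 1.79 ± 0.11 in KO (adjusted p = 1.4e-08). Serpinb6c was at 0.809, 0.738 and 1.22 CPM in young WT, 2.08, 1.8 and 1.63 in aged WT, 0.73, 0.691 and 0.977 in young KO, and 3.77, 2.86 and 4.92 in aged KO. It rose with age in both genotypes (0.73 in WT, adjusted p = 0.00306, and 1.72 in KO, adjusted p = 1.66e-06). Serpinb6b was at 0.564, 0.226 and 0.526 CPM in young WT, 0.81, 0.577 and 0.429 in aged WT, 0.811, 0.518 and 0.514 in young KO, and 1.78, 2.24 and 1.72 in aged KO. Only aged KO stood apart, with a rise of 1.12 ± 0.18 with age (adjusted p = 9.61e-05).

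Serpinb9b was the 1 tested member that was lowest in aged KO without overlap with any other group. It was at 3.31, 3.04 and 2.99 CPM in young WT, 3.49, 3.42 and 3.55 in aged WT, 1.65, 2.31 and 1.93 in young KO, and 0.79, 1.49 and 0.89 in aged KO. It fell with age in KO (-0.68, adjusted p = 0.00132) and aged KO was below aged WT (-1.38, adjusted p = 2.54e-06). The leukocyte markers were also lowest there, with 10 measured genes summing to 325 to 512 CPM in aged KO and 826 to 1286 CPM in the other libraries, with Cd3e and S100a9 below a mean of 0.5 CPM. Their part in the level of Serpinb9b was not tested.

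Serpinb8 and Serpinb9 fell with age in both genotypes. Serpinb9, an inhibitor of granzyme B, was at means of 48.1, 34.8, 56.5 and 38.8 CPM in young WT, aged WT, young KO and aged KO. Its age changes were -0.46 in WT and -0.54 in KO (adjusted p = 0.000125 and 2.55e-05), and their difference was not called (-0.08 ± 0.10, adjusted p = 0.534). Aged KO and aged WT differed by 0.15 in Serpinb9, which was not called (adjusted p = 0.0811). Among the alternatives without a replicate block, it was called when replicate 3 of aged KO was left out (0.21, adjusted p = 0.0265). Serpinb8 was at 48.2, 34.2, 41.7 and 33.2 CPM, with age changes of -0.49 and -0.33. Serpinb1b, a low transcript at means of 0.41, 0.43, 0.384 and 0.845 CPM, rose with age in KO (0.61, adjusted p = 0.00111), with 0.03 in WT (adjusted p = 0.842). Its mean of 0.517 CPM over the 12 libraries reached the filter only through aged KO. It was therefore tested only because it was high in that group, and its call there carries little weight. Below the filter lay 17 clade B rows, 4 of which (Serpinb13, Serpinb3a, Serpinb3c and Serpinb3d) had no read.

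Outside clades A and B, 6 of 11 rows were tested, among them inhibitors of plasminogen activators, the C1 inhibitor and the collagen chaperone. Serpine2 (protease nexin-1), which inhibits thrombin and plasminogen activators, was at 518, 534 and 558 CPM in young WT, 448, 425 and 426 in aged WT, 404, 444 and 433 in young KO, and 562, 581 and 574 in aged KO. Its changes were small and opposite, -0.31 with age in WT (adjusted p = 0.000137) and 0.42 in KO (adjusted p = 6.57e-06). Serpini1 (neuroserpin), an inhibitor of tissue plasminogen activator, was at 25.5, 22.2 and 24.9 CPM in young WT, 19.6, 20 and 18.2 in aged WT, 29, 27.7 and 30.8 in young KO, and 42.3, 34.7 and 45.4 in aged KO. Aged WT was below young WT (-0.32, adjusted p = 0.00976, lost with edgeR at 0.0588) and aged KO above young KO (0.47, adjusted p = 0.000601).

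Serping1, the C1 inhibitor of complement and of the contact system, was at 92.3, 94.2 and 90.3 CPM in young WT, 51.5, 47.8 and 49.9 in aged WT, 67.3, 74.2 and 62.5 in young KO, and 234, 239 and 242 in aged KO. The 4 groups did not overlap. The fall with age in WT was -0.88 ± 0.06 (adjusted p = 2.93e-08) and the rise in KO 1.80 ± 0.06 (adjusted p = 4.68e-11). Its target C1ra, a complement protease, was at 35.0, 24.5, 23.8 and 83.7 CPM in young WT, aged WT, young KO and aged KO, higher in KO at 12 months by 1.74 (adjusted p = 9.83e-10).

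Serpinf1 (PEDF) was at 389, 465 and 445 CPM in young WT, 328, 296 and 334 in aged WT, 377, 436 and 368 in young KO, and 395, 449 and 433 in aged KO. Only aged WT stood below the rest (age in WT -0.44, adjusted p = 0.00053), and the age change in KO was 0.11 ± 0.08 (adjusted p = 0.245). The 10 fibroblast markers were also lowest in aged WT, at 9778 to 10222 CPM against 12167 to 14379 in the other groups, and their part was not tested. Serpinh1, the collagen chaperone, was at 1395, 2053 and 1852 CPM in young WT, 1162, 1175 and 1073 in aged WT, 1970, 1868 and 2046 in young KO, and 874, 1046 and 1145 in aged KO. It fell with age in both genotypes (-0.62 ± 0.12, adjusted p = 0.000768, and -0.95 ± 0.12, adjusted p = 1.65e-05). The difference between these age changes was -0.33 ± 0.18 and was not called (adjusted p = 0.123), except without replicate 2 of young WT, the highest library of its group (-0.45, adjusted p = 0.0312).

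Below the filter in these clades were Serpinc1 (antithrombin), Serpind1 (heparin cofactor), Serpine3, Serpinf2 (the plasmin inhibitor alpha-2-antiplasmin) and Serpini2. Without a filter, 30 of the 40 low members could be fitted, and 3 were called higher and 1 lower with age in KO, where 10.4% of the 5687 genes below the filter were called higher and 5.73% lower. Serpind1 was at 0.202, 0.13, 0.198 and 0.436 CPM in young WT, aged WT, young KO and aged KO, with 73 reads in the last group, and Serpinf2 at 0.523, 0.247, 0.458 and 0.109 CPM. Serpinf2 fell with age in both genotypes (-0.45, adjusted p = 0.00979 in WT, and -0.65, adjusted p = 0.000874 in KO).

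The order of abundance changed with the group. Per kilobase, Serpinh1 led in young WT at 777 ± 148 CPM (SD, n = 3), in aged WT at 499.8 ± 24.5 and in young KO at 862 ± 39.3, each time ahead of Serpinb6a at 530.4 ± 15.7, 422 ± 9.16 and 459.5 ± 11.3. In aged KO Serpina3n led at 1450 ± 92.3, above Serpinb6a at 599 ± 23.8 and Serpinh1 at 449 ± 60.3, and these 3 did not overlap. Serpine2 and Serpinf1 overlapped in young WT, and Serpinf1 and Serpina3n in aged WT. Over the 12 libraries Serpinh1 ranked 45 among 13159 genes ordered per kilobase, Serpinb6a 59 and Serpina3n 61.

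The difference between genotypes at 2 months was smaller than at 12 months for most members. Of the 4 called higher and 11 called lower in KO, the largest were Serpina3f (-1.001 ± 0.13, adjusted p = 0.000181), Serpinb1a (-0.74, adjusted p = 0.000611), Serpina3c (-0.72, adjusted p = 0.0241), Serpinb2 (-0.62, adjusted p = 0.00318) and Serpinb5 (0.60, adjusted p = 0.00398). Several calls rested on single libraries. Serpina3c was not called without replicate 1 or 3 of young WT or replicate 1 or 2 of young KO (-0.62, -0.71, -0.63 and -0.63), and the same 4 libraries decided Serpina3i (-0.32, -0.41, -0.40 and -0.43). Serpinb9b (-0.56, adjusted p = 0.0222) was not called without replicate 2 or 3 of young WT or replicate 1 or 3 of young KO (-0.57, -0.58, -0.47 and -0.55). Serpinb9 (0.23, adjusted p = 0.0495) was not called without replicate 2 or 3 of young WT, 1 or 2 of aged WT, any replicate of young KO or replicate 1 of aged KO, where it ranged from 0.20 to 0.26. Serpini1 was 0.26 and not called (adjusted p = 0.0754), but among the alternatives without a replicate block was called without replicate 1 of young WT (0.30), without replicate 2 of aged KO (0.26), with TMM over all 12 libraries (0.35) and with edgeR (0.37). With TMM over all 12 libraries, Serpina3i, Serpina3n, Serpinb6a and Serpinb9b lost their call, with edgeR these and Serpina3c (adjusted p = 0.0551) did, and with no filter Serpinb9 did (adjusted p = 0.0638).

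Proteases and other genes of the serpins' pathways were taken as lists. Of all genes tested, 32.9% rose and 34.2% fell with age in KO (67% either way), and 22.3% rose and 35.6% fell in WT (58% either way), and the counts below stand against these shares. In plasminogen activation and coagulation, 11 of 19 tested genes rose and 4 fell with age in KO, and 4 rose and 8 fell in WT (medians 0.38 and -0.20). The list's share called in either direction was 78.95% in KO, and in WT, at 63.16%, it was near that of all genes. Lrp1, a receptor that clears serpin and protease complexes, was at 1119, 694, 743 and 3262 CPM in young WT, aged WT, young KO and aged KO (age in KO 2.13 ± 0.11). Plaur, the urokinase receptor, was at 31.3, 32.2, 32.2 and 10.6 CPM and fell with age in KO (-1.57 ± 0.14). Plat, tissue plasminogen activator and a target of Serpine2 and Serpini1, was at 487, 193, 511 and 382 CPM and fell with age in WT (-1.33 ± 0.07).

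Of 16 other serine proteases that serpins inhibit, 12 rose and 2 fell with age in KO, and 6 rose and 8 fell in WT. The mast cell chymases Mcpt4 (4.65, 0.346, 0.333 and 9.95 CPM) and Cma1 (30.9, 12.3, 6.93 and 38.6 CPM) were among those that moved most. The epithelial proteases Tmprss2 (1.73, 33.1, 1.49 and 3.12 CPM) and Prss8 (1.39, 24.4, 1.74 and 1.97 CPM) had another pattern, with the largest rises of the list in WT (3.92 and 3.72) and lower levels in KO at 12 months (-3.22 and -3.33). Mast cell markers summed to 133 to 151, 124 to 137, 33.2 to 36.3 and 230 to 253 CPM in young WT, aged WT, young KO and aged KO, and endothelial markers to 119 to 131, 130 to 138, 74.1 to 78.4 and 284 to 305 CPM. Skeletal muscle markers summed to 1002.5 to 1186, 190.3 to 214, 292 to 342 and 832 to 1560 CPM, so aged KO overlapped with young WT. The means of these 3 lists, like those of 17 serpins, were highest in aged KO, and the mast cell list includes Mcpt4 and Cma1. Leukocyte markers and neuron and glia markers had their lowest means there. The neuron and glia means were 24.3, 65.7, 24.6 and 18.7 CPM in young WT, aged WT, young KO and aged KO. The part of any of these lists in the serpin levels was not tested. Of 9 cysteine proteases 4 rose and 2 fell with age in KO, and none rose and 5 fell in WT. Their shares called, 66.67% in KO and 55.56% in WT, were near those of all genes. Casp4, an inflammatory caspase, was at 44.7, 45.2, 39.1 and 160 CPM.

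Protease inhibitors of other families rose with age in KO in 16 of 24 cases and fell in 4. In WT 8 rose and 10 fell, and at 12 months 9 were higher and 10 lower in KO (31.3% and 38.9% of all genes). Their largest changes were in WT, where the epithelial inhibitors Wfdc2 (17.5 to 270 CPM) and Wfdc18 (23.7 to 346 CPM) rose with age, as Serpinb5 did. Unlike Serpinb5 (-0.01), Wfdc18 also rose with age in KO (31.3 to 143 CPM, 2.16). The mean of Wfdc2 was also higher in aged KO, at 36.3 CPM against 18.5 in young KO. Of 24 acute-phase and cytokine genes, 20 rose and 2 fell with age in KO, and 11 rose and 5 fell in WT (medians 1.42 and 0.24). Ptx3 was at 12.6, 56.6, 10.3 and 499 CPM and C3 at 190, 188, 54.7 and 541 CPM in young WT, aged WT, young KO and aged KO. The list was not uniform. At 12 months 16 of the 24 were higher and 5 lower in KO, with log2 fold changes from -2.317 to 3.125. The largest rise of the list with age in WT was 3.442. Of 21 collagen chains and folding enzymes, 17 fell and 1 rose with age in WT, and 10 fell and 5 rose in KO. Col3a1, a client of Serpinh1, was at 4455, 3325, 5045 and 2481 CPM, and Col6a1 at 1467, 589.8, 1616 and 1128 CPM. At 12 months 10 of the 21 were higher and 5 lower in KO, Col6a1 among those higher (0.93). The share of this list called in either direction was 85.71% with age in WT. With age in KO and at 12 months it was 71.43%, near the 67% and 70.2% of all genes. Of 17 TGF-beta genes, 10 rose and 3 fell with age in KO, and 8 rose and 4 fell in WT, which makes 76.47% and 70.59% called beside 67% and 58% of all genes.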

How the data were processed

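The deposited signal values are CPM scaled by TMM in edgeR, per the file headers, and the submitters' processing notes name the build mm10 and the tools HTSeq 0.6.1p1, SAMtools 0.1.18, TopHat2 2.1.0 and Bowtie2 2.2.4. RNA came from the PicoPure kit and libraries from the TruSeq Stranded total RNA kit, per the labels' protocols. Which annotation and strand setting were used, and how reads with several mapping places were treated, is not given in the sources used here. Dividing each value by that of 1 read gave whole reads (within 0.1) for 100% of values in every library. The scaling factors recovered in this way appear to come from separate runs for different groups, so comparisons between genotypes may set values scaled apart side by side. TMM over all 12 libraries shifted the mean log2 library scale by -0.0374 in young WT, 0.0251 in aged WT, 0.051 in young KO and 0.0469 in aged KO. Floors given in reads cover counting error alone.

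The 13961 genes whose mean reached 0.5 CPM were tested as log2(CPM + 0.5), a scale that understates fold changes of low genes. All 12 libraries entered 1 linear model with a term per group and a mean-variance trend (limma 3.58.1 under R 4.3.3), tested first on simulated data. P-values were adjusted over all genes (Benjamini-Hochberg), and a gene was called at an adjusted p under 0.05. Rose, fell, higher and lower refer to called genes.

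Alternatives were pseudocounts of 0.1 and 1, no filter, a filter at 2 CPM, TMM over all 12 libraries, edgeR 4.0.16 (quasi-likelihood) on the recovered reads, a replicate block, and leaving out each library. Members and lists were chosen with earlier results of these data known. Values in every library are given for the 6 highest members per kilobase and for members changed by at least 1 on the log2 scale. List genes are from the 2 largest called rises and falls per comparison, and some are left out. Col3a1, Plat and C1ra come under that rule too. Gene coordinates are the deposited ones, made 1-based, on mm10. Transcript lengths and shared words are from GENCODE vM21 on GRCm38 and promoters from RefSeq. The values of 1 tested member are not reported here, and counts, medians and sums over the family include it.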

Additional observations from a re-analysis of the deposited data

Results flagged for a closer look

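For 20 of the 23 tested serpins the age effect differed between genotypes by the interaction term of limma, and 19 of them are given. Each value is the log2 age change in KO with the log2 age change in WT subtracted. In clade A the difference was 3.98 for Serpina3m, 3.80 for Serpina3c, 3.44 for Serpina3n, 3.03 for Serpina3f, 2.46 for Serpina3i, 1.44 for Serpina3g and 1.10 for Serpina3h. In clade B it was 3.91 for Serpinb2, 2.24 for Serpinb1a, 0.99 for Serpinb6c, 0.88 for Serpinb6b, 0.71 for Serpinb6a and 0.58 for Serpinb1b, and it was negative for Serpinb5 (-2.83) and Serpinb9b (-0.82). The remaining values were 2.69 for Serping1, 0.79 for Serpini1, 0.73 for Serpine2 and 0.55 for Serpinf1. For Serpinb6b the difference was not called with edgeR (adjusted p = 0.0703), and Serpinb1b was tested only because of its level in aged KO. Of all genes tested, 57.7% were called for this difference.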

How the results depend on the processing

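Of 115 member results (23 genes in 5 comparisons), 95 kept their direction and their call under every one of the 19 alternatives that gave them a value, 11 lost a call under at least 1, 4 gained one and 5 reversed while not called. Of the 115, the 15 of Serpinb1b, Serpinb6b and Serpinb6c had no value with a filter at 2 CPM, and those of Serpinb1b none without any 1 library of aged KO. Counts moved by over 1.5 times in 2 comparisons. At 2 months the members lower in KO were 7 with TMM over all 12 libraries and 6 with edgeR (11 as reported), and those higher ranged from 2 to 5 on leaving out 1 library (2 without replicate 1 or 2 of young KO). At 12 months 4 were lower in KO with no filter. TMM over all 12 libraries moved the median of all genes by 0.083 at 2 months.

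Clade medians moved by construction when the filter changed, since low genes entered with no filter, and Serpinb1b, Serpinb6b and Serpinb6c dropped out at 2 CPM. With no filter the clade A medians were 0 for age in WT, 0.0225 for age in KO, -0.043 for genotype at 2 months and 0.0095 at 12 months, and those of clade B were 0.0295 for age in KO, -0.0206 for genotype at 2 months and 0.0095 at 12 months. With a filter at 2 CPM the clade B medians were -0.3291 for age in WT, -0.0131 for age in KO and 0.1528 for genotype at 12 months. With a pseudocount of 0.1 the medians for age in KO were 3.63 in clade A and 0.6906 in clade B. Leaving out 1 library gave 0.3508 (without replicate 2 of aged KO) to 0.5344 for clade B with age in KO.

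Reversals were among values that were not called. Serpina3h at 2 months was 0.0281 with TMM over all 12 libraries, 0.0602 with edgeR, and -0.115 to 0.00349 on leaving out 1 library. On leaving out 1 library Serpinb1b ranged from -0.0314 to 0.0931 for age in WT and from -0.141 to 0.0708 at 2 months (0.0366 with edgeR). Serpinb5 with age in KO ranged from -0.131 to 0.114 and Serpinb6c at 2 months from -0.218 to 0.0229. The cause was not tested.

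Groups share replicate numbers, and same-numbered libraries correlated between -0.163 and 0.589. In replicates 1 and 3 all these correlations were positive (0.031 to 0.589). The values do not settle whether the numbers stand for a pairing. With the replicate block, the members higher and lower were 9 and 11 for age in WT, 17 and 4 for age in KO, 5 and 12 for genotype at 2 months, 19 and 2 at 12 months, and 18 and 2 for the interaction, and the calls of Serpinb8 (-0.20, adjusted p = 0.0284) and Serpini1 (0.26, adjusted p = 0.0458) at 2 months and of Serpinb9 at 12 months (0.15, adjusted p = 0.0435) were gained. By the correlations between libraries, 8 of 12 correlated best with their own number. Members with few reads, such as Serpinb1b with 48 to 157 reads per group, are limited by depth.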
